A study of Mus musculus with 6 samples.

Results

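The vitamin A genes described here are Rbp2, Bco1, Lrat, Rdh7, Rdh10, Dhrs3, Aldh1a1, Adh1 and Isx, chosen by name as the carotene cleaving, retinol binding, esterifying and oxidising genes of the gut and their feedback regulator. These genes, like the lists used below, were chosen with earlier results of these data known. All 9 have a row among the 23390 mouse genes of the deposited count table. The RNA came from C57BL/6 small-intestinal epithelium, sorted for viable cells without the leukocyte marker CD45 and with the epithelial marker EpCAM. One group of 3 libraries came from Vil.Cre Maf.flox mice, in which Cre under the villin promoter acts on floxed Maf in the intestinal epithelium, and the other group of 3 libraries came from Maf.flox mice, which carry the floxed allele in the labels and no Cre. Ages, litters and the number of animals behind a library are not stated, so a p-value reflects only how far these libraries spread, which may be technical. No group carried Cre without floxed Maf, and effects of Cre and of Maf loss cannot be told apart.

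Dietary vitamin A reaches enterocytes as provitamin A carotenoids or as retinol. Carotenoids are cleaved to retinal, retinal is reduced to retinol, retinol is held by a cellular binding protein, and most of it is esterified and packed into chylomicrons. A smaller share is oxidised through retinal to retinoic acid, the ligand of the nuclear retinoic acid receptors. In mice retinoic acid induces Isx, a homeobox repressor of the gut that lowers the carotenoid transporter Scarb1 and the cleaving enzyme Bco1, which closes a feedback loop on vitamin A uptake. Enzymes of this pathway are abundant in absorptive cells of the villus.

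The comparison describes how RNA of the sorted epithelial cells differs when Cre acts on Maf, which encodes the transcription factor c-Maf. Maf itself had 16, 1 and 1 counts in the Vil.Cre Maf.flox libraries and 9398, 5615 and 3893 counts in the Maf.flox libraries, a log2 fold change of -9.89 (SE 0.704, Benjamini-Hochberg adjusted p = 0.0133 in edgeR). With Vil.Cre Maf.flox replicate 2, Vil.Cre Maf.flox replicate 3 or Maf.flox replicate 2 left out in turn, the adjusted p of Maf by the same test was 0.0556, 0.0563 and 0.0557. Libraries held 17464355 to 24802525 counts. Maf.flox replicate 3 stood apart from the other controls, with a chi-square per gene of 133 and 61.6 against replicates 1 and 2, which differed from each other by 37.8. Counts of Xist and Y-linked genes placed 2 males and 1 female among Vil.Cre Maf.flox and 1 male and 2 females among Maf.flox. All levels below are CPM, counts scaled to library size, after TMM scaling unless they are given as FPKM.

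All 9 vitamin A genes passed the filter on low counts, and all 9 had a log2 fold change below 0, from -2.39 to -0.10, with a median of -0.94. Over all 13740 genes tested 51.6% lay below 0 and the median was -0.01. The retinol carrier Rbp2 was furthest from 0, at 19.1% of its control level, followed by the oxidising enzymes Rdh7 and Aldh1a1 and the esterifying enzyme Lrat, while Rdh10 and the regulator Isx stood at 90.9% and 93.0% of control. In edgeR none of the 9 reached the adjusted p threshold of 0.05, against 0.357% of all genes called lower and 0.189% called higher. At an unadjusted p under 0.05 by that test, 6 of the 9 were lower and 0 higher, beside 9.25% of all genes lower and 7.11% higher. DESeq2 called 5 of the 9 lower (Rbp2, Lrat, Rdh7, Dhrs3 and Adh1), beside 3.47% of all genes lower and 2.06% higher, and limma-voom called 0, beside 0.131% lower. At a looser adjusted p of 0.1 in edgeR 3 were lower (Rbp2, Lrat and Dhrs3), beside 1.69% of all genes. With no filter on low counts edgeR called 2 lower, beside 0.926%, and without Maf.flox replicate 3 it called 5 lower, beside 4.11%. In 7 of the 9 every Vil.Cre Maf.flox library lay below every Maf.flox library, beside 10.5% of all genes. Since the 9 were chosen with earlier results known, these shares describe them and are no test of the set.

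**Figure D1:**
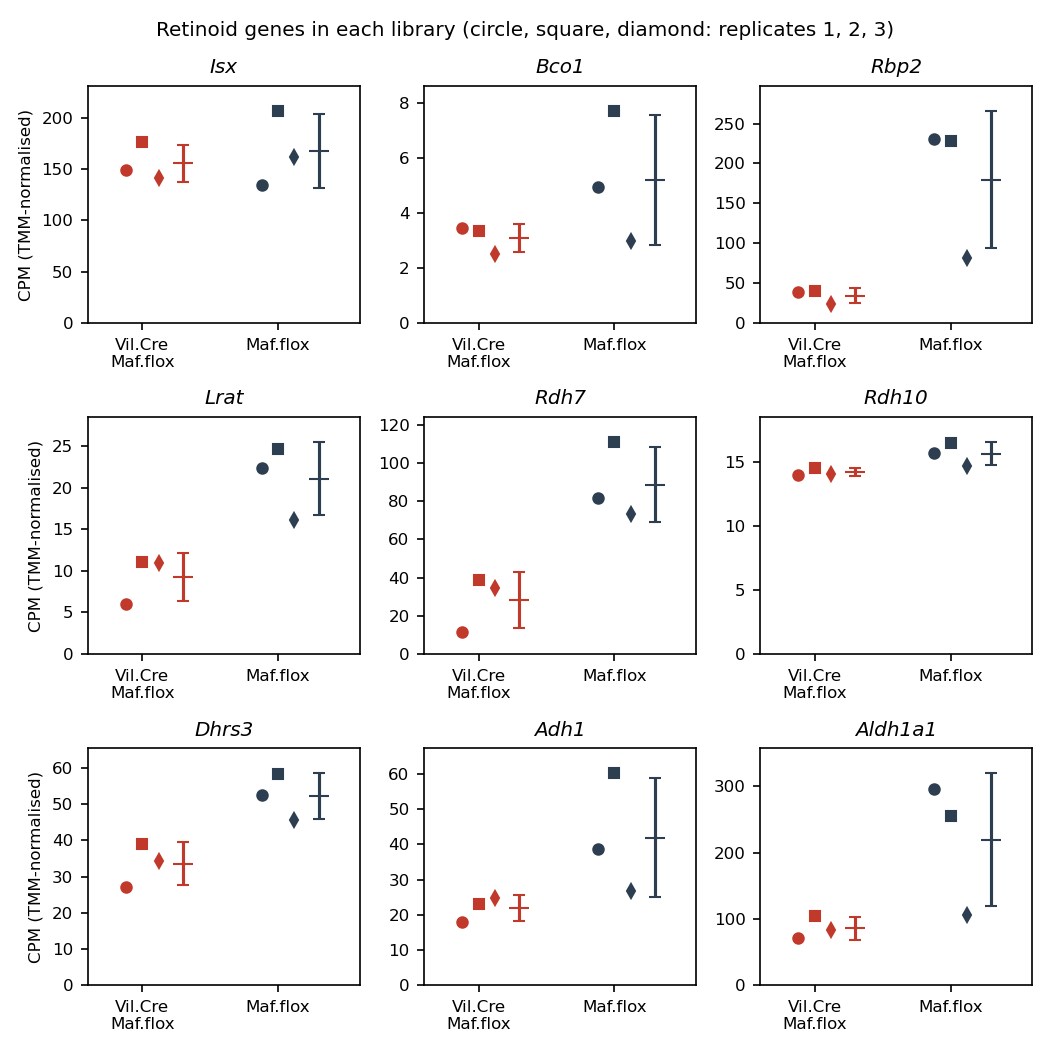
Level of each of the 9 genes in CPM (vertical axes from 0) in the Vil.Cre Maf.flox libraries (left, red) and the Maf.flox libraries (right, dark). Each point is 1 library and the bar beside it is the mean with its SD (n = 3); only Bco1 and Isx overlap between the groups, and the diamond of Maf.flox replicate 3 is the lowest control for 8 of the 9 genes.

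**Figure D2:**
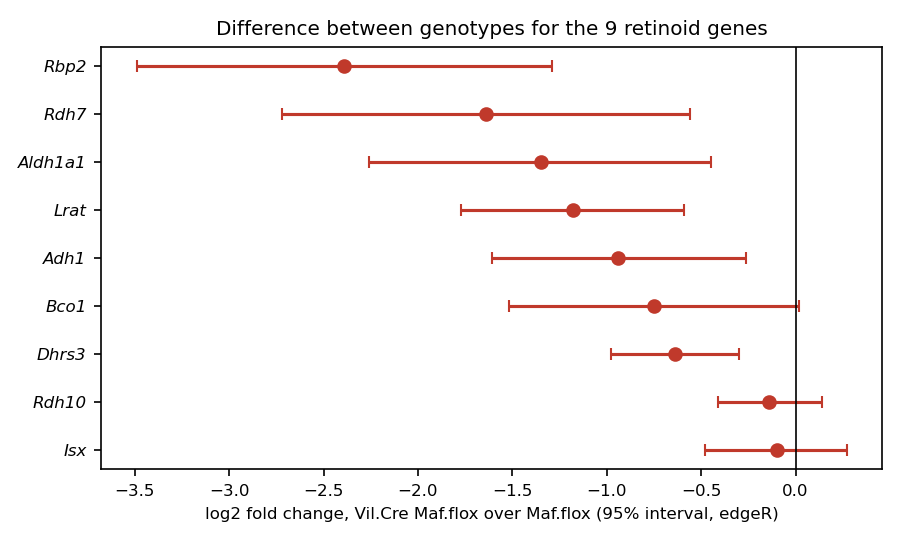
Log2 fold change of Vil.Cre Maf.flox over Maf.flox for each gene with its 95% interval from edgeR. Rbp2 lies furthest from 0 at -2.39, and the intervals of Bco1, Rdh10 and Isx include 0.

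Carotenoid cleavage is the task of Bco1 (beta-carotene oxygenase, GRCm38 chromosome 8, 117095854 to 117133720, plus strand). Bco1 had 3.45, 3.35 and 2.52 CPM in the Vil.Cre Maf.flox libraries and 4.96, 7.70 and 2.99 CPM in the Maf.flox libraries, from 57 to 148 counts per library. The groups overlapped, since the lowest control lay below both of the higher Vil.Cre Maf.flox libraries. Its log2 fold change of -0.75 had an SE of 0.339 (95% interval -1.52 to 0.02, adjusted p = 0.319, edgeR). Without Maf.flox replicate 2 it was -0.35 (adjusted p = 0.822 by the same test). Of the stretches of 50 bases in its annotated transcripts, 1.49% also occur in transcripts of other genes.

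Binding of newly absorbed retinol and retinal is the task of Rbp2, a small cytosolic carrier of enterocytes (chromosome 9, 98486115 to 98509781, plus strand). Rbp2 had 39.2, 40.5 and 23.6 CPM in the Vil.Cre Maf.flox libraries and 230.5, 228 and 81.2 CPM in the Maf.flox libraries. Every Vil.Cre Maf.flox library lay below every control, while Maf.flox replicate 3 lay at 45.2% of the control mean and the other controls at 128% and 127%. In males the values were 39.2 and 40.5 CPM in Vil.Cre Maf.flox against 230.5 CPM in Maf.flox, and in females 23.6 CPM in Vil.Cre Maf.flox against 228 and 81.2 CPM in Maf.flox. The means were 34.4 ± 9.41 CPM in Vil.Cre Maf.flox and 179.8 ± 85.4 CPM in Maf.flox (SD, n = 3 each), a log2 fold change of -2.39 (SE 0.452, 95% interval -3.49 to -1.29, adjusted p = 0.0875, edgeR). Without Maf.flox replicate 3 the log2 fold change was -2.74 and the adjusted p by the same test 0.00103, while with any other single library left out the adjusted p ran up to 0.3085.

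The windows before the annotated starts of Rbp2, of Bco1 and of Isx are shown because these 3 are the carrier with the widest difference, the enzyme under Isx feedback and the regulator itself. They run from 250 bases before the start to 50 after it (RefSeq, GRCm38.p6), read 5′ to 3′ on the strand of the gene, at chr9:98490287-98490586, chr8:117095615-117095914 and chr8:74872924-74873223, all on the plus strand. Capitals mark matches on either strand. One searched motif was TGCTGAC, which is known as an extended Maf half-site. The shared core of AP-1 and Maf elements was searched with the letters TGAGTCA, and the hexamer of the nuclear receptors with the letters AGGTCA. Sites known for zinc finger factors of the Gata4 family were searched with the letters AGATAA. Sites known for the intestinal homeobox factors of the CDX family were searched with the letters TTTATG, and the box of core promoters with the letters TATAAA. Direct repeats of the receptor hexamer with 1, 2 or 5 bases between the copies were searched as well.
Rbp2: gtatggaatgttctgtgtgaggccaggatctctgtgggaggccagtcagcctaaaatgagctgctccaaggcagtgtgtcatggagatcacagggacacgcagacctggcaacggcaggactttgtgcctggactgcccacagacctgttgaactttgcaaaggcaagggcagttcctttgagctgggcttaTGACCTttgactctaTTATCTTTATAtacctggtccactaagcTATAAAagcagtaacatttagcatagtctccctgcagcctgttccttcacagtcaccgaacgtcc
Bco1: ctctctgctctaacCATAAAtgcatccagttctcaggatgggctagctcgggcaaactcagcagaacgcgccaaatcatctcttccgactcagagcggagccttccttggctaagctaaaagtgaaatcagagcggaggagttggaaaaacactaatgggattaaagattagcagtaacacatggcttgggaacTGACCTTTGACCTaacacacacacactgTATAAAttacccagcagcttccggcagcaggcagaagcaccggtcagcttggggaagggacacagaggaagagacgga
Isx: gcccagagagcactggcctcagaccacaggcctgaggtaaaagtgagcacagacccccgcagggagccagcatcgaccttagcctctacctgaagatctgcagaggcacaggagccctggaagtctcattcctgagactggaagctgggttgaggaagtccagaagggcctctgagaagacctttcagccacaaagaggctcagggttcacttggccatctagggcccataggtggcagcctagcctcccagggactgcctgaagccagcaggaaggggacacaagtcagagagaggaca
The Bco1 window held AGGTCANAGGTCA on the opposite strand, starting 56 bases before the start, a match found in 13 of 32544 promoter windows of this length (0.0399%). The Rbp2 window held 1 AGGTCA on the opposite strand 58 bases before the start, which 16.2% of windows hold, beside matches to AGATAA and TATAAA that overlap each other. A separate TATAAA lay on the strand of Rbp2 15 bases before the start. The RefSeq start used for this window lies inside the span of Rbp2 given above. The Isx window held none of these letters. Neither TGCTGAC, found in 4.65% of windows, nor TGAGTCA, found in 5.19%, occurred in these 3 windows. Among the other members with a window, Aldh1a1 held TGAGTCA on the opposite strand 57 bases before the first of its 2 starts (window chr19:20492333-20492632). The window of its distant second start (chr19:20601718-20602017) held neither TGAGTCA nor TGCTGAC. RefSeq windows were matched for 8 of the 9 genes. A match is a description of the letters and no evidence of binding.

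Esterification of retinol is the task of Lrat, lecithin-retinol acyltransferase (chromosome 3, 82892579 to 82903973, minus strand). Lrat had 5.99, 11.0 and 10.9 CPM in the Vil.Cre Maf.flox libraries and 22.4, 24.7 and 16.2 CPM in the Maf.flox libraries. No Vil.Cre Maf.flox library reached the lowest control. Lrat thus had a log2 fold change of -1.18 (SE 0.257, 95% interval -1.77 to -0.59, adjusted p = 0.0866, edgeR), and without Maf.flox replicate 3 it was -1.34 with an adjusted p of 0.0251 by that test, against up to 0.310 with another library left out. With no filter on low counts the adjusted p by edgeR was 0.0376.

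Retinol and retinal are interconverted by dehydrogenases and reductases. Rdh7 (chromosome 10, 127884028 to 127888817, minus strand), a short-chain dehydrogenase that oxidises retinol and also acts on steroids, had 11.7, 38.8 and 34.8 CPM in the Vil.Cre Maf.flox libraries and 81.9, 110.8 and 73.2 CPM in the Maf.flox libraries. Vil.Cre Maf.flox replicate 1 was the lowest by a wide margin, and its group still lay wholly below the controls. For Rdh7 edgeR gave a log2 fold change of -1.64 (SE 0.444, adjusted p = 0.164). Rdh7 sits in a cluster of similar genes, and 12.9% of its stretches of 50 bases also occur in transcripts of other genes, so its counts are uncertain where reads could be split. The Rdh7 relatives Rdh1, Rdh9 and Rdh16 had log2 fold changes of -0.80, -1.36 and -0.71, none of them called in edgeR (adjusted p = 0.247, 0.212 and 0.607). DESeq2 called Rdh9 (adjusted p = 0.0167). Without Maf.flox replicate 3 the log2 fold changes of Rdh9 and Rdh16 were -1.74 and -1.15 and both were called (adjusted p = 0.00599 and 0.0314, edgeR). Without Maf.flox replicate 2 they were -1.07 and -0.27 (adjusted p = 0.571 and 0.950, edgeR).

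Rdh10 (chromosome 1, 16105774 to 16133734, plus strand), the main retinol oxidising enzyme of the mouse embryo, had 14.0, 14.6 and 14.0 CPM in the Vil.Cre Maf.flox libraries and 15.7, 16.5 and 14.7 CPM in the Maf.flox libraries. The groups did not overlap, but only narrowly so, and the spread within each was small, with coefficients of variation of 2.23% in Vil.Cre Maf.flox and 5.76% in Maf.flox. Rdh10 had a log2 fold change of -0.14 with a 95% interval of -0.41 to 0.14 (adjusted p = 0.629, edgeR).

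Dhrs3 (chromosome 4, 144892827 to 144928209, plus strand), which reduces retinal back to retinol and is known to be induced by retinoic acid, had 27.2, 38.9 and 34.4 CPM in the Vil.Cre Maf.flox libraries and 52.7, 58.2 and 45.6 CPM in the Maf.flox libraries. All Vil.Cre Maf.flox libraries lay below all controls. Dhrs3 had a log2 fold change of -0.64 (SE 0.149, 95% interval -0.98 to -0.30, adjusted p = 0.0932, edgeR). It was called without Maf.flox replicate 3 (log2 fold change -0.73, adjusted p = 0.033) and with no filter (adjusted p = 0.0181), but not with another library left out (adjusted p up to 0.354 in edgeR).

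Adh1 (chromosome 3, 138260991 to 138290698, plus strand), a cytosolic alcohol dehydrogenase that also clears excess retinol, had 17.8, 23.2 and 24.7 CPM in the Vil.Cre Maf.flox libraries and 38.8, 60.2 and 26.8 CPM in the Maf.flox libraries. The groups were separated by a narrow gap, since Maf.flox replicate 3 lay just above the highest Vil.Cre Maf.flox library. In edgeR Adh1 had a log2 fold change of -0.94 (SE 0.287, adjusted p = 0.183), and -1.17 with an adjusted p of 0.0211 without Maf.flox replicate 3. Without Maf.flox replicate 2 it was -0.57 (adjusted p = 0.459, edgeR), and over the libraries left out the adjusted p ran up to 0.544. An antisense gene shares 136 of the 2233 exonic bases of Adh1, and use of strand in counting is not given in the sources used here.

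Retinal is oxidised to retinoic acid by Aldh1a1, a cytosolic retinal dehydrogenase (chromosome 19, 20492715 to 20643462, plus strand). Aldh1a1 had 70.5, 104.8 and 82.3 CPM in the Vil.Cre Maf.flox libraries and 296, 256 and 106 CPM in the Maf.flox libraries. Maf.flox replicate 3 lay just above the highest Vil.Cre Maf.flox library, and the other controls lay far above. In edgeR its log2 fold change was -1.35 (SE 0.377 and adjusted p = 0.163), and -1.68 with an adjusted p of 0.00196 without Maf.flox replicate 3, against up to 0.497 with another library left out (edgeR). Aldh1a1 shares 3.06% of its stretches of 50 bases with Aldh1a7, a close copy in mice, which had a log2 fold change of -1.11 (adjusted p = 0.162 by the same test, 0.0272 without Maf.flox replicate 3 and up to 0.476 with another library left out).

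Isx (intestine specific homeobox, chromosome 8, 74873173 to 74893506, plus strand), the regulator of the loop, had 149.5, 176 and 141.5 CPM in the Vil.Cre Maf.flox libraries and 134.4, 206 and 161.7 CPM in the Maf.flox libraries. Both the highest and the lowest library were controls, so the Vil.Cre Maf.flox values lay inside the control range. The log2 fold change was -0.10 with a 95% interval of -0.48 to 0.27 (adjusted p = 0.808, edgeR), and its sign turned without Maf.flox replicate 2, to 0.08. Scarb1, the carotenoid transporter that Isx represses, had 21, 31 and 27 counts in the Vil.Cre Maf.flox libraries and 19, 30 and 26 counts in the Maf.flox libraries. Its log2 fold change of 0.17 (SE 0.368) had no stable sign, at -0.08 without Vil.Cre Maf.flox replicate 2 and -0.05 without Maf.flox replicate 1. Scarb1 is named here after its values were seen.

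Levels of different genes were compared as FPKM, the authors' deposited values per gene length and library size. In Vil.Cre Maf.flox the order from high to low was Isx (87.0 ± 9.78 FPKM), Rbp2 (35.8 ± 9.70), Aldh1a1 (17.4 ± 3.49), Rdh7 (16.98 ± 8.71), Dhrs3 (11.5 ± 2.00), Adh1 (9.83 ± 1.64), Rdh10 (3.42 ± 0.0649), Lrat (1.74 ± 0.540) and Bco1 (1.22 ± 0.196; SD, n = 3). In Maf.flox it was Rbp2 (186 ± 88.8 FPKM), Isx (92.8 ± 19.3), Rdh7 (52.5 ± 11.4), Aldh1a1 (44.3 ± 20.4), Adh1 (18.7 ± 7.44), Dhrs3 (17.7 ± 2.12), Lrat (3.92 ± 0.816), Rdh10 (3.74 ± 0.210) and Bco1 (2.04 ± 0.915; SD, n = 3). Neighbours whose libraries overlapped were Aldh1a1 with Rdh7, Rdh7 with Dhrs3, Dhrs3 with Adh1, and Lrat with Bco1 in Vil.Cre Maf.flox, and Rbp2 with Isx, Rdh7 with Aldh1a1, Aldh1a1 with Adh1, Adh1 with Dhrs3, and Lrat with Rdh10 in Maf.flox. Isx thus headed the list in Vil.Cre Maf.flox and Rbp2 in Maf.flox. Within each library the ratio of Isx to Rbp2 FPKM was 2.05, 2.33 and 3.22 in Vil.Cre Maf.flox and 0.313, 0.486 and 1.07 in Maf.flox. The groups did not overlap in this ratio, and its log2 value differed by 2.19 (exact two-sided permutation test, p = 0.1, the smallest that 3 against 3 libraries allow). Among the 9 genes Rbp2 had the widest and Isx the narrowest log2 fold change. The ratio of Isx to Rbp2 therefore largely restates the difference of Rbp2 and adds no separate support. The only other ratio computed, Aldh1a1 to Adh1, was 1.79, 2.05 and 1.51 in Vil.Cre Maf.flox and 3.46, 1.92 and 1.80 in Maf.flox. There the groups overlapped, and the log2 value differed by -0.37 (exact two-sided permutation test, p = 0.4).

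**Figure D3:**
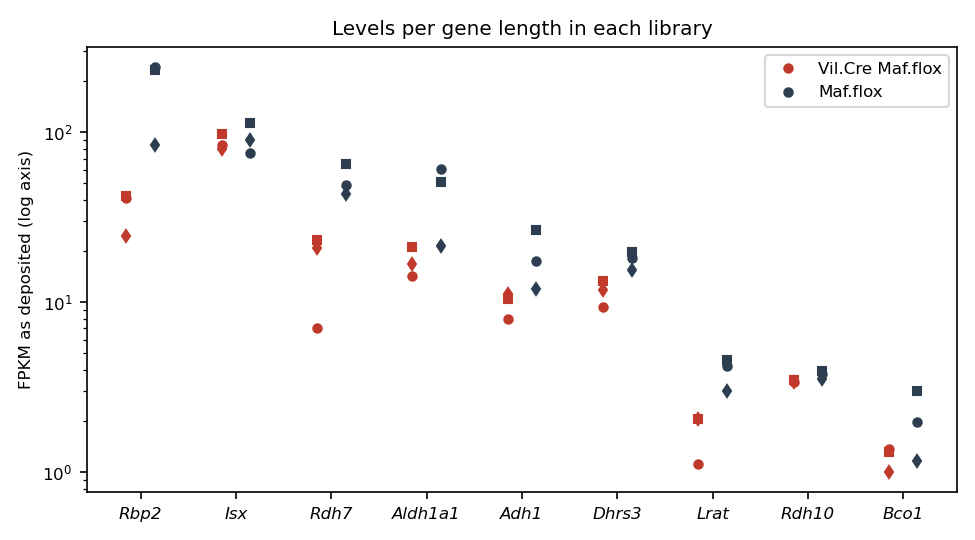
Deposited FPKM of each gene in each library on a log axis, Vil.Cre Maf.flox in red to the left of Maf.flox in dark, ordered by the Maf.flox mean. Rbp2 ranges from 24.7 to 42.1 FPKM in Vil.Cre Maf.flox and from 83.8 to 241 FPKM in Maf.flox, while Isx ranges from 79.4 to 98.1 FPKM in Vil.Cre Maf.flox and from 75.4 to 113.5 FPKM in Maf.flox.

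Across the 6 libraries the log2 levels of the 8 genes other than Isx moved together. Pearson's r lay between 0.57 (Rdh7 with Bco1) and 0.99 (Dhrs3 with Lrat) for the pairs among them, and between 0.22 and 0.55 for pairs with Isx. These values describe 6 points that share genotype, depth and cell makeup. Among 8872 genes with a mean of at least 10 CPM, those with the highest r to Rbp2 were Ip6k1, Prr15, Acsl5, Slc6a19 and Fabp2, with r from 0.994 to 0.996. Slc6a19 is the neutral amino acid transporter of the brush border, Acsl5 an acyl-CoA synthetase and Fabp2 the intestinal fatty acid binding protein. Their log2 fold changes were -0.54, -0.87, -0.88, -2.98 and -2.11, with adjusted p from 0.0736 to 0.0868 (edgeR). For Isx the highest were Rps26-ps1, St6galnac2, Gfod2, Anxa4 and Gata4, with r from 0.943 to 0.964, and Gata4 is the zinc finger factor of the proximal small intestine. Gata4 had a log2 fold change of -0.10.

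Markers of absorptive cells varied alongside these genes. The summed level of 10 enterocyte markers (Alpi, Apoa1, Apoa4, Fabp1, Fabp2, Sis, Vil1, Epcam, Slc5a1 and Treh) was 9619, 12123 and 7704 CPM in the Vil.Cre Maf.flox libraries and 21479, 20848 and 10843 CPM in the Maf.flox libraries. All 10 markers had a log2 fold change below 0 (median -1.09), none was called, and the sums overlapped through Maf.flox replicate 3. Per 1000 CPM of these markers, a scale chosen after the data were seen, Rbp2 stood at 4.07, 3.34 and 3.06 CPM in Vil.Cre Maf.flox and 10.7, 10.9 and 7.49 CPM in Maf.flox, without overlap. The share of all genes without overlap on this scale was not computed. Whether Rbp2 differs beyond enterocyte content was not tested. On the same scale Bco1, Lrat, Rdh7, Dhrs3, Adh1, Aldh1a1 and Isx overlapped between the groups, and so did Rdh10, with 1.46, 1.20 and 1.82 CPM in Vil.Cre Maf.flox and 0.730, 0.792 and 1.36 CPM in Maf.flox. Isx stood at 15.5, 14.5 and 18.4 CPM in Vil.Cre Maf.flox and 6.26, 9.89 and 14.9 CPM in Maf.flox. Rdh7 stood at 1.22, 3.20 and 4.52 CPM in Vil.Cre Maf.flox and 3.82, 5.32 and 6.75 CPM in Maf.flox. A gene with unchanged CPM stands higher on this scale where the marker sum is lower. In bulk samples fewer cells of a type and less RNA per cell cannot be told apart.

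**Figure D4:**
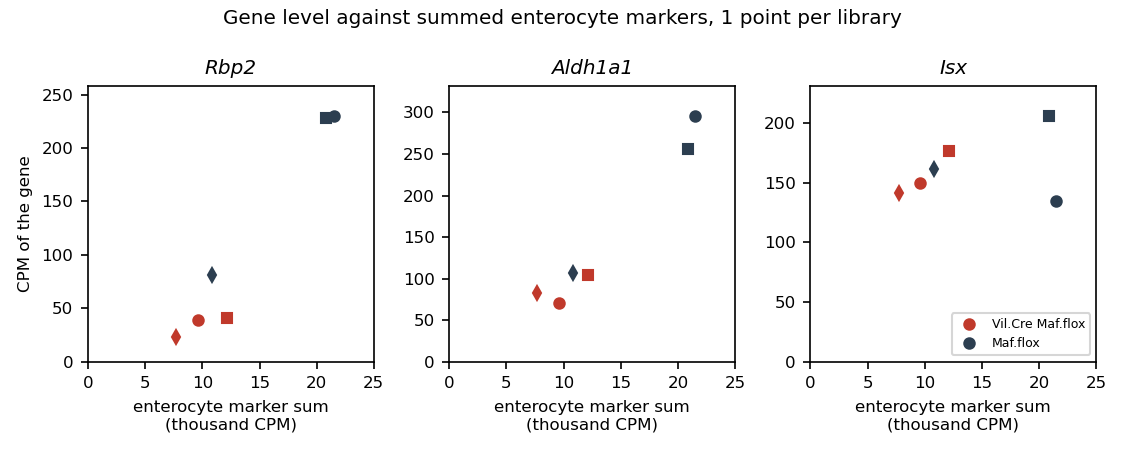
Level of Rbp2, Aldh1a1 and Isx in CPM (vertical axes) against the summed CPM of 10 enterocyte markers (horizontal axes, in units of 1000 CPM), 1 point per library, circle, square and diamond for replicates 1, 2 and 3. Maf.flox replicate 3, the dark diamond, is 1 library with a marker sum of 10843 CPM, inside the Vil.Cre Maf.flox range. It has 81.2 CPM of Rbp2 (at most 40.5 CPM in Vil.Cre Maf.flox) and 106 CPM of Aldh1a1 (at most 104.8 CPM in Vil.Cre Maf.flox). Its 161.7 CPM of Isx lie inside the Vil.Cre Maf.flox range. The part of enterocyte content in these levels was not tested.

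Regional and other cell type markers also differed between libraries. Summed markers of the proximal small intestine (8 genes) were 149.7 to 182 CPM in Vil.Cre Maf.flox and 438 to 886 CPM in Maf.flox, while 7 distal markers overlapped, at 5910 to 12038 CPM in Vil.Cre Maf.flox and 5506 to 10034 CPM in Maf.flox. Lct, which is called lower on its own, made up most of the proximal sum in controls. Of the 6 proximal markers tested, 5 lay below 0. Slc40a1 of the same list went the other way, at 72.3 CPM in Vil.Cre Maf.flox and 35.0 CPM in Maf.flox. Its log2 fold change was 1.04 (adjusted p = 0.0736, edgeR). Sums of 7 Paneth cell markers were 6827 to 9660 CPM in Vil.Cre Maf.flox and 4896 to 28715 CPM in Maf.flox, the highest in Maf.flox replicate 3. Sums of 8 tuft cell markers were 14.3 to 16.2 CPM in Vil.Cre Maf.flox and 18.0 to 80.4 CPM in Maf.flox, and those of goblet, enteroendocrine and stem cell markers overlapped. Stromal cells, which can hold Lrat and Rdh10, gave sums of 8.12 to 10.9 CPM in Vil.Cre Maf.flox and 8.12 to 8.75 CPM in Maf.flox over 8 fibroblast and stellate markers with a row, with Pdgfrb making up most. The leukocyte markers summed to 26.4 to 33.4 CPM in Vil.Cre Maf.flox and 20.1 to 31.4 CPM in Maf.flox, and the dendritic cell enzyme Aldh1a2 had 0, 0 and 0 counts in Vil.Cre Maf.flox and 0, 1 and 0 counts in Maf.flox. The part of enterocyte number and of these other cells in the differences of the 9 genes was not tested.

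Of 58 other genes of the pathway, 39 passed the filter, 27 of them below 0 and 12 above, with a median of -0.15. In edgeR none reached the adjusted p threshold (background 0.357% lower and 0.189% higher). At an unadjusted p under 0.05, 8 of the 39 were lower and 3 higher, beside 9.25% of all genes lower and 7.11% higher. DESeq2 called 6 lower (Plb1, Lipe, Ces1d, Ces1g, Rdh9 and Aldh1a7) and 0 higher, beside 3.47% and 2.06% of all genes, and limma-voom called 0, beside 0.131% lower.

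In uptake and carotenoid handling, Plb1, the brush border phospholipase B that also hydrolyses retinyl esters, had 258, 325 and 184.6 CPM in the Vil.Cre Maf.flox libraries and 1007, 1346 and 568 CPM in the Maf.flox libraries. All Vil.Cre Maf.flox libraries lay below all controls. In edgeR Plb1 had a log2 fold change of -1.93 (SE 0.339, adjusted p = 0.0674), and -2.20 with an adjusted p of 0.00317 without Maf.flox replicate 3, against up to 0.260 with another library left out (edgeR). Bco2, the mitochondrial carotenoid cleaving enzyme, stood at -0.17 and the fatty acid and carotenoid receptor Cd36 at -0.82, neither called. The retinol transporter Stra6 was near absence, with 0, 0 and 0 counts in Vil.Cre Maf.flox and 0, 1 and 2 counts in Maf.flox. The related Stra6l was present, at 13.3 CPM in Vil.Cre Maf.flox and 15.7 CPM in Maf.flox. Its log2 fold change was -0.23 (adjusted p = 0.643, edgeR).

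Among genes of esters, Lipe, the hormone-sensitive lipase, had a log2 fold change of -0.91 (34.2 CPM in Vil.Cre Maf.flox and 64.2 CPM in Maf.flox, adjusted p = 0.111, with 0.00435 without Maf.flox replicate 3 and up to 0.373 with another library left out, edgeR). The carboxylesterases Ces1d and Ces1e stood at -1.79 and -0.63 and were not called in edgeR (adjusted p = 0.178 and 0.220). Ces1d had 24, 42 and 74 counts in Vil.Cre Maf.flox and 338, 102 and 88 counts in Maf.flox. Without Maf.flox replicate 1 its log2 fold change was -1.04 (adjusted p = 0.292, edgeR). DESeq2 called Ces1d (adjusted p = 0.00674) and not Ces1e (adjusted p = 0.126). As members of a family of similar genes Ces1d and Ces1e can share reads. The 8 tested genes of this role had a median of -0.60. Of the binding proteins, 4 were tested with a median of -0.09, and Fabp5, which can carry retinoic acid, stood at 0.38, the plasma carrier Ttr at -0.27 and Rbp7 at -0.10. The sign of Rbp7 turned under 4 alternatives.

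The 16 other oxidoreductases tested were split evenly, 8 below and 8 above 0. Akr1b8 and Akr1b10, aldo-keto reductases that reduce retinal among other aldehydes, stood above 0, while the related Akr1b7, named here after its values were seen, stood at -1.21 (19.5 CPM in Vil.Cre Maf.flox and 44.9 CPM in Maf.flox, groups overlapping, adjusted p = 0.349, edgeR). Akr1b8 had 5.58, 3.41 and 4.71 CPM in Vil.Cre Maf.flox and 2.73, 2.24 and 2.66 CPM in Maf.flox, a log2 fold change of 0.84 (adjusted p = 0.152, edgeR). Akr1b10 had 4.46, 3.23 and 2.78 CPM in Vil.Cre Maf.flox and 1.09, 1.82 and 2.66 CPM in Maf.flox, a log2 fold change of 0.91 (adjusted p = 0.245 by the same test). In both the groups did not overlap, as for 10.1% of all genes in that direction.

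Breakdown of retinoic acid is the task of the Cyp26 enzymes. Cyp26b1 had 11, 30 and 21 counts in the Vil.Cre Maf.flox libraries and 7, 6 and 7 counts in the Maf.flox libraries. All Vil.Cre Maf.flox libraries lay above all controls, at a low mean level of 1.07 CPM in Vil.Cre Maf.flox and 0.313 CPM in Maf.flox. Its log2 fold change in edgeR was 1.74, with an SE of 0.497 and an adjusted p of 0.147. Cyp26a1 had 2, 0 and 0 counts in Vil.Cre Maf.flox and 0, 0 and 2 counts in Maf.flox. The receptors Rara, Rxra and Rxrb stood at -0.23, -0.05 and -0.19 and were not called, and the sign of Rxra turned without Maf.flox replicate 1. Rarb, a receptor that retinoic acid induces in many cells, had 2, 0 and 0 counts in Vil.Cre Maf.flox and 0, 0 and 1 counts in Maf.flox.

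**Figure D5:**
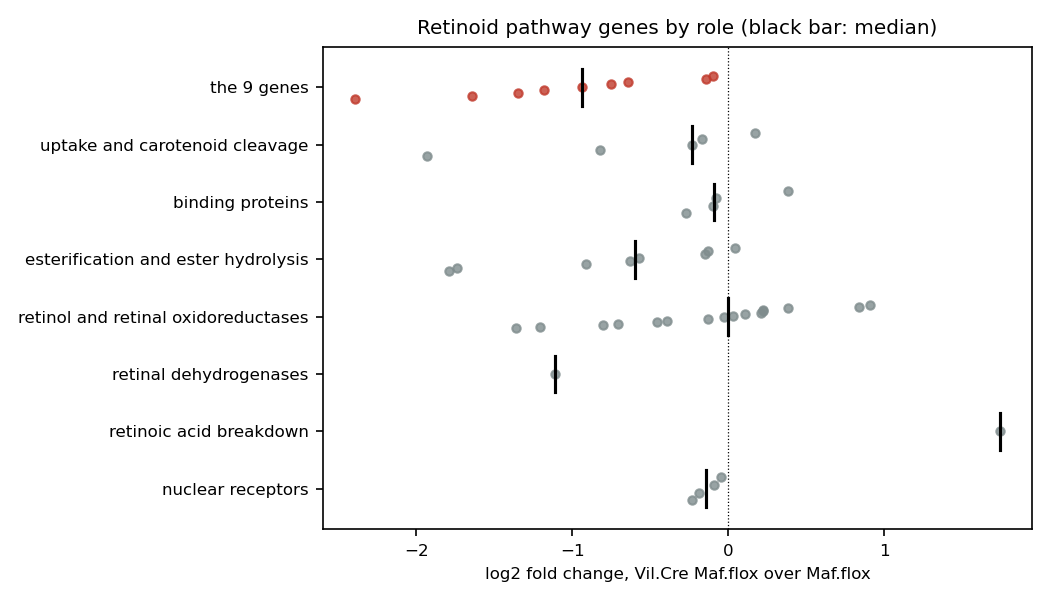
Log2 fold change of Vil.Cre Maf.flox over Maf.flox (horizontal axis) for the 9 genes (red) and for the other tested genes of the pathway by role (grey), 1 point per gene, with the median of each row as a black bar. The 9 genes have a median of -0.94, the ester genes -0.60, and Cyp26b1 is alone in its row at 1.74.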

How the data were processed

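RNA of 6 libraries of sorted epithelial cells was analysed from 1 table. Counts per gene are deposited by the authors as whole numbers, not normalised, and the tools named for them are HISAT2 2.0.5 and featureCounts 1.5.0-p3, with DESeq2, on GRCm38 (mm10), per the submitters' processing notes. FPKM as deposited scale each count by gene length and by 1 size per library. They were described and, apart from 2 ratios between genes, not tested. Strand use in counting is not given in the sources used here: the labels' protocol names both a directional and a non-directional variant.

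Differences were tested on the counts in R 4.3.3 with edgeR 4.0.16 (filterByExpr with least count 10, TMM scaling, quasi-likelihood F test with robust estimation, genotype as the only term, Benjamini-Hochberg adjustment over 13740 genes, threshold 0.05). The SE is the log2 fold change divided by the root of F. Log2 CPM used a prior count of 2. Alternatives were other scalings, filters (least count 50, or none), DESeq2 1.42.0, limma-voom (limma 3.58.1), thresholds of 0.01 and 0.1, a replicate block, a sex term and each library left out. The fits were also tested on simulated counts. With a chi-square per gene of 35.2 to 133, no pair of replicates was a copy.

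The 9 genes and the lists were chosen with earlier results of these data known. Named besides them were Maf, of each other pathway list any called gene and the 3 with the smallest p, family relatives of Rdh7 and Aldh1a1, and the 5 genes most like Rbp2 and Isx. Besides Scarb1 and Akr1b7, the pathway genes Stra6, Stra6l, Aldh1a2, Cyp26a1, Rarb and Ces1g were named outside this rule. Shared sequence was counted as stretches of 50 bases in GENCODE M21 transcripts (GRCm38).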

Additional observations from a re-analysis of the deposited data

How the results depend on the processing

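Under 14 alternative fits each of the 9 vitamin A genes kept its direction except Isx, whose log2 fold change was 0.08 without Maf.flox replicate 2 (-0.23 to 0.08 with 1 library left out). The number of them called was 0 in the main fit and 0 with other scaling, the stricter filter, limma-voom, the sex term or adjusted p 0.01. It was 2 with no filter, 5 with DESeq2 and 3 at adjusted p 0.1, and it ran from 0 to 5 with 1 library left out, the 5 arising without Maf.flox replicate 3 (Rbp2, Lrat, Dhrs3, Aldh1a1 and Adh1, beside 4.11% of all genes lower). Their median ran from -1.17 without that library to -0.57 without Maf.flox replicate 2. Other pathway genes called were 0 in the main fit, 6 with DESeq2, 1 at adjusted p 0.1 and 0 to 5 with 1 library left out. All genes called were 75 in the main fit, 365 with no filter, 760 with DESeq2, 30 with limma-voom, 38 with the sex term, 2 at adjusted p 0.01, 372 at adjusted p 0.1, and with 1 library left out the lowest was 8, when Vil.Cre Maf.flox replicate 3 was dropped, and the highest 701, when Maf.flox replicate 3 was; the cause was not tested. Sign changes besides Isx were those of Rbp7 (0.14 with the sex term, 0.08 and 0.03 without Vil.Cre Maf.flox replicates 1 and 2, 0.04 without Maf.flox replicate 2; lowest -0.44), Rxra (0.04 without Maf.flox replicate 1; lowest -0.14) and Scarb1 (-0.08 without Vil.Cre Maf.flox replicate 2, -0.05 without Maf.flox replicate 1; highest 0.41). A replicate block gave 440 genes (2.24% of all genes lower), 2 of the 9 (Rbp2 and Dhrs3, adjusted p = 0.000898 and 0.0301 by edgeR) and 3 other pathway genes. Deviations from the group means correlated at 0.0917, -0.0256 and 0.269 between libraries of the same number, Vil.Cre Maf.flox replicate 2 was closest to Maf.flox replicate 1 (0.331), and the numbers were not taken as pairs. Bco1 rests on 57 to 148 counts per library and Cyp26b1 on 6 to 30, which limits what can be seen for them.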

Other observations

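Rdh16f2, an Rdh16 family member outside the lists above that was chosen after its values were seen, had 3, 20 and 12 counts in the Vil.Cre Maf.flox libraries and 120, 133 and 66 counts in the Maf.flox libraries. By edgeR it stood at -3.06 on the log2 scale (SE 0.574, adjusted p = 0.0701), further from 0 than that of Rbp2, and reads of similar family members can be split between them in counting. It was called with no filter, with DESeq2, with a replicate block and without Maf.flox replicate 3 (adjusted p = 0.0164 by edgeR). The adjusted p over its alternatives ran from 1.69e-06 to 0.217.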
